A study of Mus musculus with 24 samples.

Results

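The genes described here make and control cellular lipid. They are 31 genes of sterol synthesis, of fatty acid synthesis and of the liver X receptor (LXR) pathway, taken by gene symbol from the probe annotation. The list was chosen with earlier results of these data known. They comprised 15 enzymes of the sterol pathway, 5 genes of SREBP control, 5 enzymes of fatty acid synthesis, 2 genes of LXR receptors and 4 LXR targets. Of the 31 genes, 30 were measured, among 18193 genes in all. Nr1h2, a receptor gene, matched no probe set with 1 symbol and was not analysed here. Each gene was represented by 1 Affymetrix probe set, the one with the highest mean over the arrays among those listed with 1 symbol. Values are log2 probe set values, and a level of 1 gene is never set against that of another.

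The cells were macrophages grown from the bone marrow of male Il10-/- mice, which lack a cytokine that restrains inflammation. All groups carried this deletion, so no group stands for a wild-type macrophage. B6 denotes C57BL/6J-Il10tm1Cgn, a colitis-resistant strain, and C3Bir denotes C3H/HeJBir-Il10tm1Cgn, a susceptible strain. BC-R3, labelled B6.Cg-Il10tm1Cgn Cdcs1, had the B6 background and the C3Bir form of Cdcs1, a colitis locus on chromosome 3. CB-R1, labelled C3Bir.Cg-Il10tm1Cgn Cdcs1, had the C3Bir background and a long chromosome 3 segment from B6 that includes Cdcs1. Cells of 3 mice per genotype were cultured for 6 days. The wells labelled flagellin received 1 µg/mL of a bacterial flagellin for the last 4 h, and the others were left unstimulated. RNA of 3 wells was pooled per array, giving 3 arrays, numbered 1 to 3, for each of the 8 groups. The labels do not tie an array number to a mouse, so p-values measure the spread between arrays, which may be partly technical. In bulk RNA, fewer cells of a type and less RNA per cell cannot be told apart.

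Sterol synthesis is governed by the SREBP transcription factors, which are made as membrane precursors. When sterols are scarce, the escort protein SCAP carries the precursor to the Golgi for cleavage, and the freed factor switches on genes of the sterol pathway. INSIG proteins hold SCAP back when sterols are plentiful. LXR works the other way round: it is a nuclear receptor activated by oxysterols, and in macrophages it induces cholesterol export pumps, apolipoprotein E and SREBP-1c, the lipogenic form made from Srebf1. Macrophages use these pathways to adjust membrane lipid during activation and to dispose of cholesterol taken up with dead cells.

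The upstream sequences of 5 of the genes are shown because 2 of them, Apoe and Srebf1, separated the strain backgrounds on every array, Nsdhl and Cyp51 are sterol enzymes that differed in opposite directions, and Hmgcs1 was the member with a sterol regulatory element match. Each is the stretch of 250 bases before a RefSeq transcript start in build GRCm38.p6, 5′ to 3′ on the strand of the gene, and capitals mark motif matches on either strand. The stretches lie at chr7:19699189-19699438 on the minus strand for Apoe, chr11:60222582-60222831 on the minus strand for Srebf1, chr5:4104698-4104947 on the minus strand for Cyp51, chrX:72918271-72918520 on the plus strand for Nsdhl and chr13:119690101-119690350 on the plus strand for Hmgcs1. Apoe and Srebf1 have 3 listed windows each, and the first listed is shown. Another Srebf1 window, chr11:60210422-60210721 on the minus strand, lies downstream of the one shown. Which of the Srebf1 windows belongs to SREBP-1c was not examined. The RefSeq sequence is that of C57BL/6J, and the sequence of the C3Bir strain was not used here.
Apoe: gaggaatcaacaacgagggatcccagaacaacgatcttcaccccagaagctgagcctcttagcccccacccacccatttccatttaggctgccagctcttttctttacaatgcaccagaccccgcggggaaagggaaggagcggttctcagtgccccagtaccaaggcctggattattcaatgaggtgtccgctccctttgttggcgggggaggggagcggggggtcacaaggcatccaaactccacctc
Srebf1: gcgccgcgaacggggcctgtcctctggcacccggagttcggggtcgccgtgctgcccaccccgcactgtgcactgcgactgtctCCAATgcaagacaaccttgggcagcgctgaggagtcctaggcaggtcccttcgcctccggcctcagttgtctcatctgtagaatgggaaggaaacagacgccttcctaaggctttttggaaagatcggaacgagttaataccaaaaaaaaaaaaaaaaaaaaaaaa
Cyp51: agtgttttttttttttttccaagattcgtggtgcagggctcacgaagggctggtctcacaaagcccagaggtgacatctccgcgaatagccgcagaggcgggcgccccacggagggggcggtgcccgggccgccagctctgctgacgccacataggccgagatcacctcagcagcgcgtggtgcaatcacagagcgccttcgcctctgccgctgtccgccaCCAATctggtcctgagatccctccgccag
Nsdhl: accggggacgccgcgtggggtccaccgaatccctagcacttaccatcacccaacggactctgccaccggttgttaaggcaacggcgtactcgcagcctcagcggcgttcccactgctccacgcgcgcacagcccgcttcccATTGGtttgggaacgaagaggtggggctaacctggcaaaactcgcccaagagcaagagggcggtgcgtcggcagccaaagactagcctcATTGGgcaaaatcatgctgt
Hmgcs1: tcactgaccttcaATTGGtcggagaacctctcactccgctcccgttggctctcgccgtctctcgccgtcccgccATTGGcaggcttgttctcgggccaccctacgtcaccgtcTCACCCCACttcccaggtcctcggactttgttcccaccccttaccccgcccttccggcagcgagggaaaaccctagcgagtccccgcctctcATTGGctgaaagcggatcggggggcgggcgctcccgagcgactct

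RefSeq windows from 250 bases before to 50 bases after a start were found for 25 of the 31 members, 36 windows in all. The sterol regulatory element core, searched as TCACNCCAC on both strands, was in 1.24% of 32851 windows of all genes and in 1 member window. That match was in Hmgcs1, which encodes the cytosolic enzyme that makes HMG-CoA, and began at position -137 from the start. The CCAAT box, searched as CCAAT on both strands, was in 37.4% of all windows and in 19 of the 36 member windows, or 52.8%, from 18 genes. The LXR element, DR4, searched on both strands as 2 copies of AGGTCA with any 4 bases between, was in 0.0152% of all windows and in 0 member windows. A match is a description of letters, and a missing match says only that these letters are not in the window.

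Signal was found for macrophage markers and for neutrophil markers. Csf1r, the receptor for the macrophage growth factor, lay between 13.48 and 13.97 on the 24 arrays, and Lyz2, a lysozyme of myeloid cells, between 14.04 and 14.44. Of the 8 measured macrophage markers, Mertk had 7.78 to 10.14, Itgam 9.18 to 11.09 and Fcgr1 9.85 to 12.14. The neutrophil marker S100a8 lay between 12.80 and 13.94 and Ngp between 12.59 and 14.01. Array medians lay between 6.548 and 6.639, and the correlation between arrays within a group was 0.987 to 0.998. The unstimulated arrays were not alike. The mean log2 value of 10 inflammatory cytokine and related genes was 9.18, 12.26 and 12.31 on B6 unstimulated arrays 1 to 3, 7.56, 10.28 and 10.23 on the C3Bir ones, 9.45, 7.69 and 7.56 on the BC-R3 ones and 7.17 to 7.63 on the CB-R1 ones. All 12 flagellin arrays lay between 7.50 and 9.01. Unstimulated arrays 2 and 3 of B6 and of C3Bir thus stood highest. The results of unstimulated groups below are set beside the fit without those 4 arrays. That fit leaves 1 unstimulated array each in B6 and C3Bir, so a call lost in it can also reflect the fewer arrays. B6 unstimulated array 1, kept in that fit, and BC-R3 unstimulated array 1 also lay above all 12 flagellin arrays. The mean of 9 interferon-stimulated genes was 12.24 to 13.16 on unstimulated B6 arrays against 8.94 to 11.73 with flagellin. It was 10.31 to 10.61 against 9.76 to 10.98 in C3Bir, and 9.38 to 11.94 against 9.92 to 11.03 in BC-R3. In CB-R1 it was 9.72 to 11.17 against 10.60 to 11.57. All 7 measured neutrophil markers were higher in the C3Bir background, with array means of 11.65 to 12.87 against 11.11 to 12.04. Of 5 dendritic cell markers 2 were higher there and 0 lower, with array means of 7.14 to 7.48 against 6.83 to 7.30. One of the 5, Itgax, lay between 8.67 and 10.87 on the 24 arrays. Of 10 stromal markers 3 were higher and 1 lower there. Of 6 measured adipocyte markers, Adipoq, Lep and Cidec lay below the lower quartile of the arrays on all 24, while Fabp4 was at 10.54 to 11.37, Lipe at 7.59 to 8.49 and Retn at 7.39 to 7.81. The mean of all 6 was 6.55 to 6.80 in the B6 background and 6.64 to 6.80 in the C3Bir background. The mean of 10 stromal markers ranged from 7.13 to 9.05 in the B6 background and from 7.18 to 8.68 in the C3Bir background. Unstimulated CB-R1 arrays had stromal means of 8.16 to 8.68 against 7.18 to 7.71 in C3Bir, and neutrophil means of 12.65 to 12.87 against 11.78 to 12.47. With flagellin these were 8.27 to 8.52 against 7.30 to 7.75, and 12.70 to 12.87 against 11.65 to 12.56. The part of these marker differences in the strain comparisons was not tested.

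**Figure D1:**
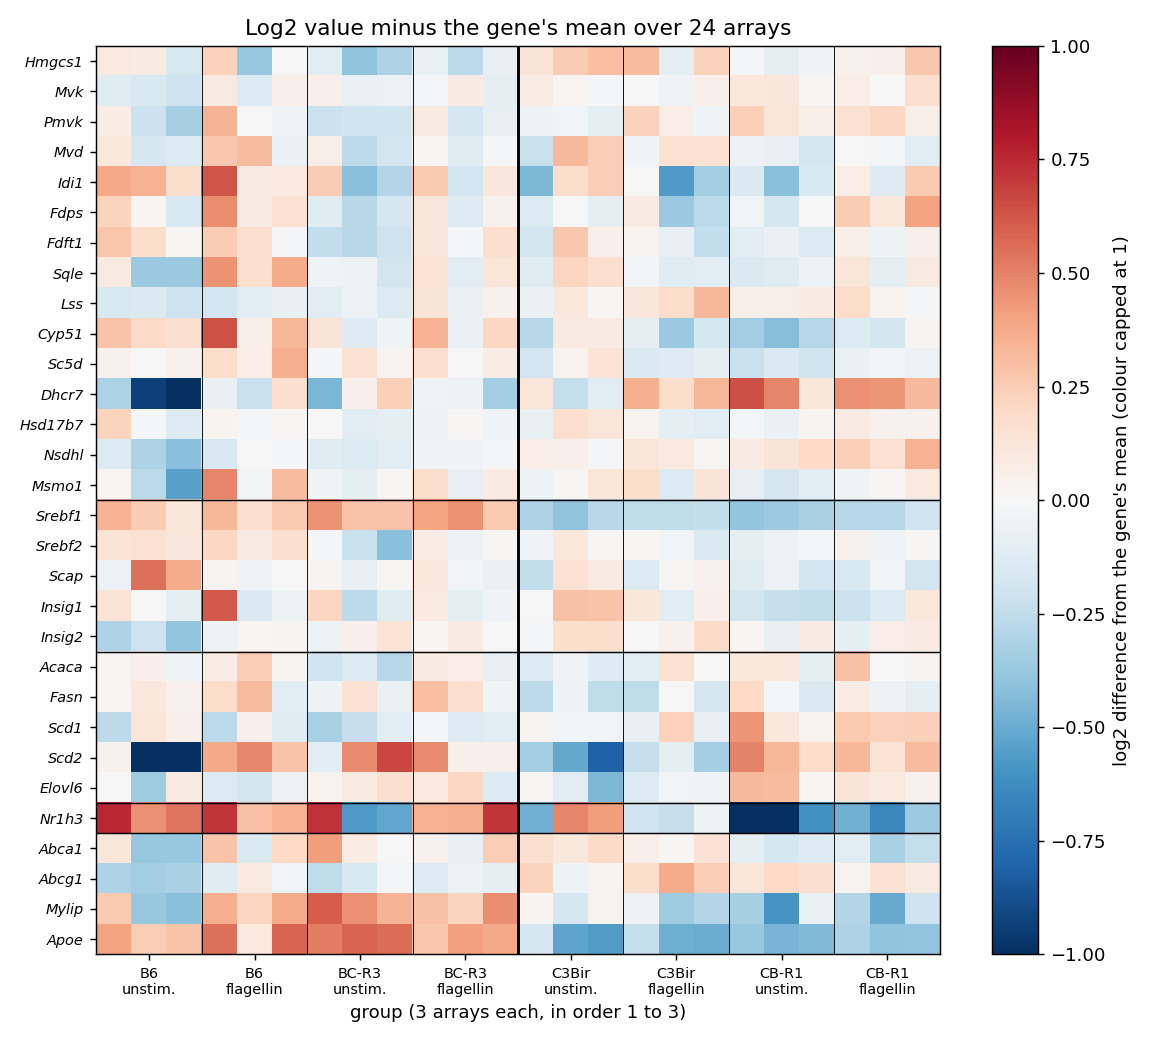
Heat map of the 30 measured genes (rows, in the order sterol synthesis, SREBP control, fatty acid synthesis, LXR receptor and LXR targets) on the 24 arrays (columns, 3 per group). Colour is the log2 value minus the mean of that gene over all arrays, capped at 1, and Apoe and Srebf1 change colour at the thick line between the B6 and C3Bir backgrounds.

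The first comparison set the 12 arrays of the C3Bir background (C3Bir and CB-R1) against the 12 of the B6 background (B6 and BC-R3), in both conditions. Macrophages of the C3Bir background had less mRNA signal for the LXR target Apoe, for Srebf1, for the receptor gene Nr1h3 and for the LXR target Mylip. They had more for the LXR target Abcg1 and for the sterol enzymes Dhcr7, Nsdhl and Lss. A gene was called when the Benjamini-Hochberg adjusted p of limma, taken over all 18193 genes of the comparison, was under 0.05. Of the 30 genes, 16 were called, or 53.3%, against 27.2% of all genes. In the C3Bir background 9 members were higher, where 16.6% of all genes were, and 7 were lower, where 10.6% of all genes were. The split depended on the scaling: it was 6 higher and 9 lower with quantile normalization, and 5 higher and 9 lower with median centring. The median log2 difference was -0.04 over the members and 0.02 over all genes, so the members differed in both directions with no common shift. A smaller part, 5 members or 16.7%, was both called and at least 1.3-fold apart, as 6.95% of all genes were.

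**Figure D2:**
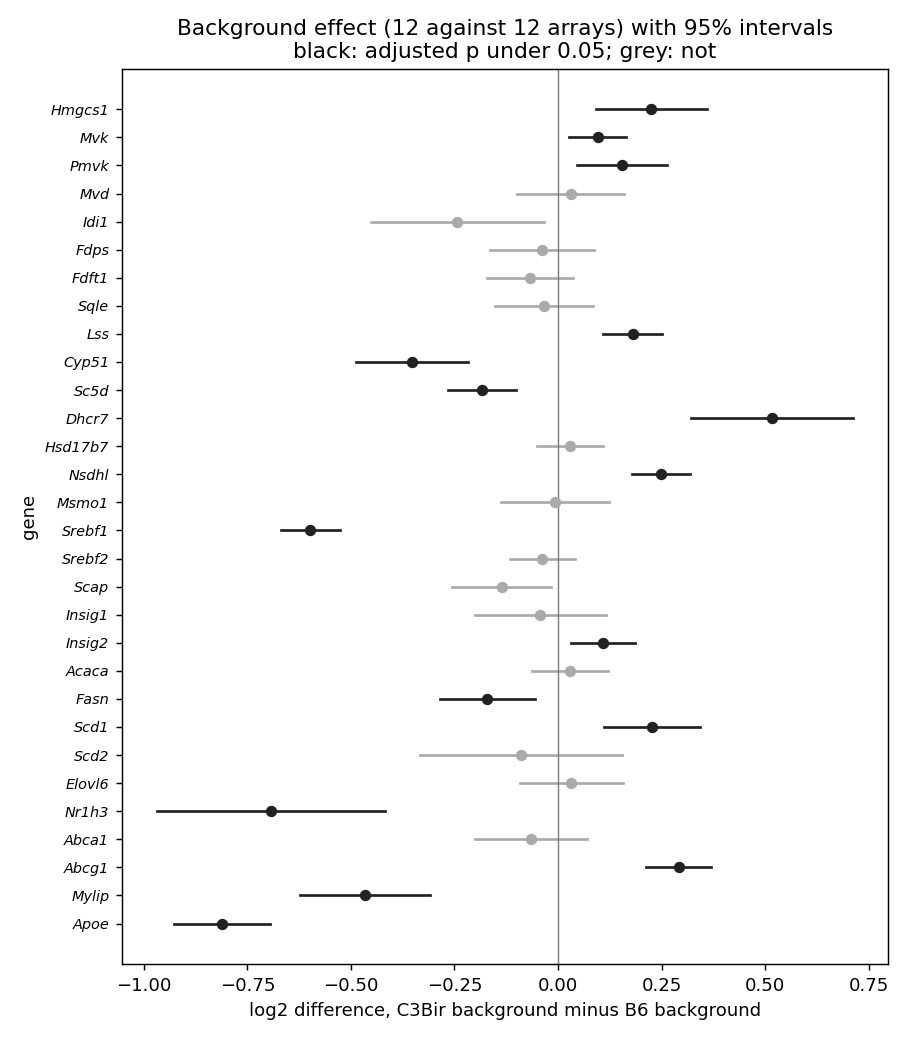
Log2 difference between the C3Bir and B6 backgrounds for each of the 30 genes (points, 12 against 12 arrays) with its 95% confidence interval (lines). Black marks the 16 genes with an adjusted p under 0.05 and grey the others, and Apoe, Nr1h3, Srebf1 and Mylip lie farthest to the left while Dhcr7 lies farthest to the right.

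Apoe encodes apolipoprotein E, which macrophages secrete and which accepts cholesterol leaving the cell. Its lowest, median and highest values were 13.32, 13.46 and 13.71 on the 12 arrays of the C3Bir background. They were 13.98, 14.29 and 14.46 on the 12 of the B6 background. No array of one background reached the range of the other. Apoe fell by 0.81 ± 0.06 on the log2 scale (± SE), or 1.75-fold, with an adjusted p of 5.83e-10. Srebf1 had 8.69, 8.81 and 8.90 in the C3Bir background against 9.20, 9.38 and 9.54 in the B6 background, again without overlap. It fell by 0.60 ± 0.03, or 1.51-fold (adjusted p = 3.46e-11). Non-overlap of this kind was found for these 2 members, or 6.67%, against 2.74% of all genes. Both were called with any 1 of the 24 arrays left out. Neither gene reached 2-fold.

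The neutrophil marker difference stood beside these values. In the range of neutrophil means that both backgrounds shared, 11.65 to 12.04, lay 3 arrays of the C3Bir background and 6 of the B6 background. All 3 were C3Bir arrays, unstimulated array 3 and flagellin arrays 2 and 3, since the lowest CB-R1 mean was 12.65. Apoe was 13.32 to 13.40 on the former and 14.15 to 14.43 on the latter, and Srebf1 was 8.82 to 8.84 against 9.35 to 9.54. The part of the neutrophil signal in the background differences was not tested. Of the 16 called members, 8 had 1 probe set each: Apoe, Srebf1, Nr1h3, Mylip, Dhcr7, Nsdhl, Pmvk and Fasn. For these a sequence variant of a strain under the probes and a difference in mRNA cannot be told apart.

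The other LXR targets did not move together. Mylip, which encodes the ubiquitin ligase IDOL that degrades lipoprotein receptors, had a lowest, median and highest value of 10.89, 11.24 and 11.52 in the C3Bir background and 11.07, 11.80 and 12.09 in the B6 background. The ranges overlapped, and Mylip fell by 0.47 ± 0.08 (adjusted p = 7.74e-05). Abcg1, a pump that exports cholesterol to high-density lipoprotein, went the other way, with 11.36, 11.56 and 11.77 in the C3Bir background against 11.06, 11.28 and 11.50. In the C3Bir background 8 of 12 arrays lay above all B6-background arrays. Abcg1 was higher by 0.29 ± 0.04 (adjusted p = 5.48e-06), its second probe set by 0.33 ± 0.07. On the arrays of that shared neutrophil range Abcg1 was 11.43 to 11.77 against 11.09 to 11.35. Abca1, which loads cholesterol onto apolipoprotein A-I, did not pass the test, with a difference of -0.07 (95% interval -0.20 to 0.07).

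Nr1h3 encodes LXRα, the LXR form that is prominent in macrophages. Its lowest, median and highest values were 8.25, 8.84 and 9.75 in the C3Bir background and 8.70, 9.67 and 10.02 in the B6 background. The ranges overlapped widely, and the difference was -0.69 ± 0.13 (adjusted p = 4.29e-04). Nr1h3 parted the unstimulated arrays into a high and a low set, which also differed in the cytokine mean. Of the 12 unstimulated arrays, the 6 with the highest Nr1h3, at 9.68 to 10.02, had cytokine means of 9.18 to 12.31. They were all 3 B6 arrays, C3Bir arrays 2 and 3 and BC-R3 array 1. Within these 6 Nr1h3 did not rise with the cytokine mean. B6 array 1, at 10.02, and BC-R3 array 1, at 9.98, had the highest Nr1h3 and the lowest cytokine means, 9.18 and 9.45. The other 6 arrays had Nr1h3 at 8.25 to 8.78 and cytokine means of 7.17 to 7.69. On flagellin arrays Nr1h3 was 9.55 to 9.98 in the B6 background and 8.62 to 9.21 in the C3Bir background, with cytokine means of 8.24 to 9.01 and 7.50 to 8.21. The part of the cytokine state in the background difference of Nr1h3 was not tested.

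**Figure D3:**
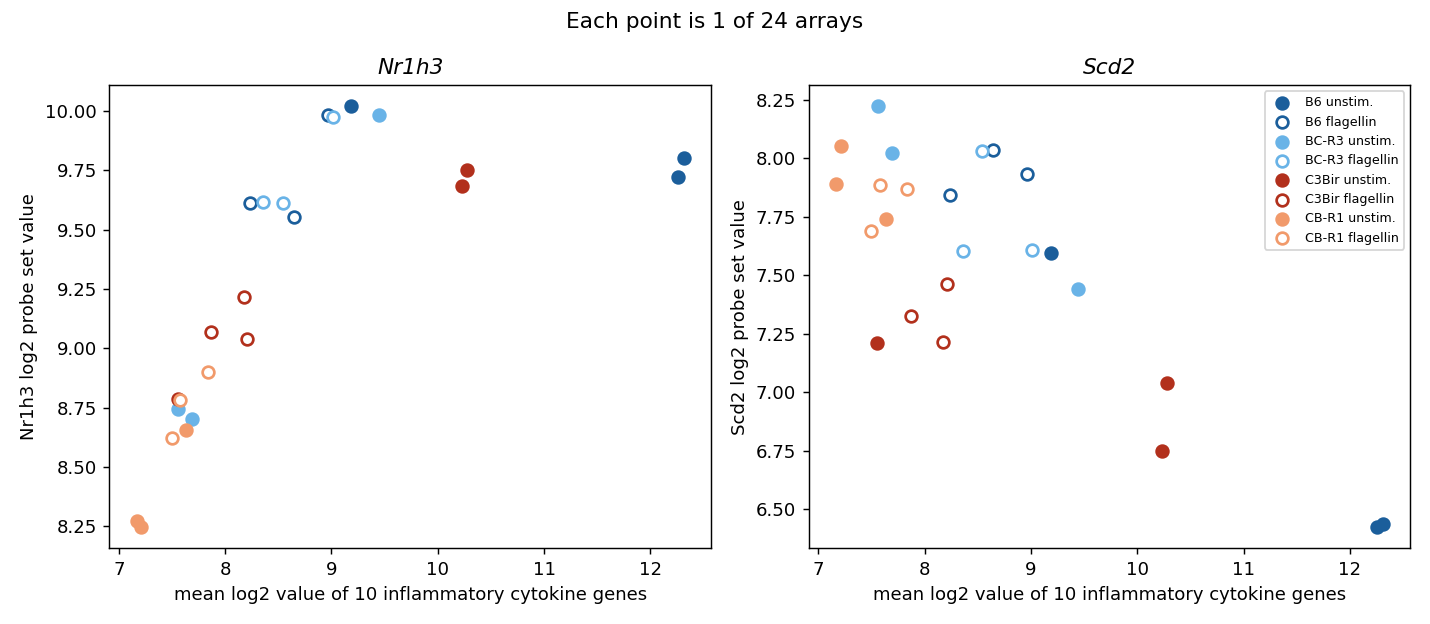
Log2 values of Nr1h3 (left) and Scd2 (right) against the mean log2 value of 10 inflammatory cytokine and related genes, where each point is 1 of 24 arrays, colour gives the strain and open points are flagellin arrays. The 6 unstimulated arrays with the highest Nr1h3 have cytokine means of 9.18 or more, and the 4 arrays with the lowest Scd2, at 6.42 to 7.04, have cytokine means of 10.23 or more.

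Of the 15 sterol enzymes, 8 were called, 6 higher and 2 lower in the C3Bir background. Dhcr7, the reductase that completes cholesterol, had 7.80, 8.37 and 8.68 (lowest, median and highest) in the C3Bir background against 6.91, 7.90 and 8.28. It was higher by 0.52 ± 0.09 (adjusted p = 2.46e-04), with 7 of 12 arrays of the C3Bir background above all of the other. Nsdhl, a decarboxylating enzyme that helps strip methyl groups from the sterol ring, is on the X chromosome, and the animals were all male. It had 8.73, 8.85 and 9.09 against 8.32, 8.63 and 8.74, with 11 of 12 arrays above all of the B6 background. Nsdhl was higher by 0.25 ± 0.03 (adjusted p = 1.01e-05). On the arrays of the shared neutrophil range it was 8.73 to 8.84 against 8.60 to 8.73. Lss, the cyclase that forms lanosterol, was higher by 0.18 ± 0.03 (adjusted p = 4.12e-04). Hmgcs1 was higher by 0.23 ± 0.06 (adjusted p = 0.0119), Pmvk by 0.15 ± 0.05 (0.0309) and Mvk by 0.10 ± 0.03 (0.0356). These last 3 act at the start of the pathway, Hmgcs1 making HMG-CoA and the kinases Mvk and Pmvk phosphorylating mevalonate, and the calls of Mvk and Pmvk were lost with quantile normalization or median centring, that of Hmgcs1 with median centring.

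Cyp51 and Sc5d were the sterol enzymes lower in the C3Bir background. Cyp51, the demethylase of lanosterol, had 7.57, 7.81 and 8.08 against 7.86, 8.17 and 8.63, with 8 of 12 arrays of the C3Bir background below all of the B6 background. It fell by 0.35 ± 0.06 (adjusted p = 3.04e-04). Sc5d, the desaturase that precedes Dhcr7, fell by 0.18 ± 0.04 (adjusted p = 0.00122), with 10 of 12 arrays below all of the B6 background. The direction for Sc5d depended on the probe set: another of its 3 probe sets was higher by 0.33 ± 0.09 (unadjusted p = 0.00117), and the mean of the 3 was higher by 0.0469 in the C3Bir background. Of the 16 called members, 8 had other probe sets and 3 of these had one of the opposite sign, namely Hmgcs1 (-0.01), Cyp51 (0.01) and Sc5d. For Cyp51, Insig2 and Abcg1, 1 other probe set differed in the same direction at an unadjusted limma p under 0.05. For Lss, Hmgcs1, Mvk and Scd1 none did, so these calls rest on 1 probe set each. The remaining sterol enzymes, Mvd, Idi1, Fdps, Fdft1, Sqle, Hsd17b7 and Msmo1, were not called.

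Fatty acid enzymes differed little. Scd1, which puts the double bond into saturated fatty acids, was higher by 0.23 ± 0.06 in the C3Bir background (adjusted p = 0.0039), and Fasn, the fatty acid synthase, was lower by 0.17 on the log2 scale (difference -0.17 ± 0.06, adjusted p = 0.0253). Scd2 differed by -0.09 (95% interval -0.33 to 0.15). In SREBP control, Insig2 was higher by 0.11 ± 0.04 (adjusted p = 0.0319; 0.225 with quantile normalization and 0.202 with median centring) and Srebf2, the gene of the SREBP form most tied to sterol synthesis, differed by -0.04 (95% interval -0.12 to 0.04). When arrays 2 and 3 of the unstimulated B6 and C3Bir groups were left out, 14 members were called, 5 higher and 9 lower, of which 11 were among the 16. Hmgcs1, Mvk, Pmvk, Insig2 and Fasn were the 5 that no longer passed. Leaving out any 1 of the 24 arrays gave 13 to 17 calls, and 12 of the 16 were called each time.

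**Figure D4:**
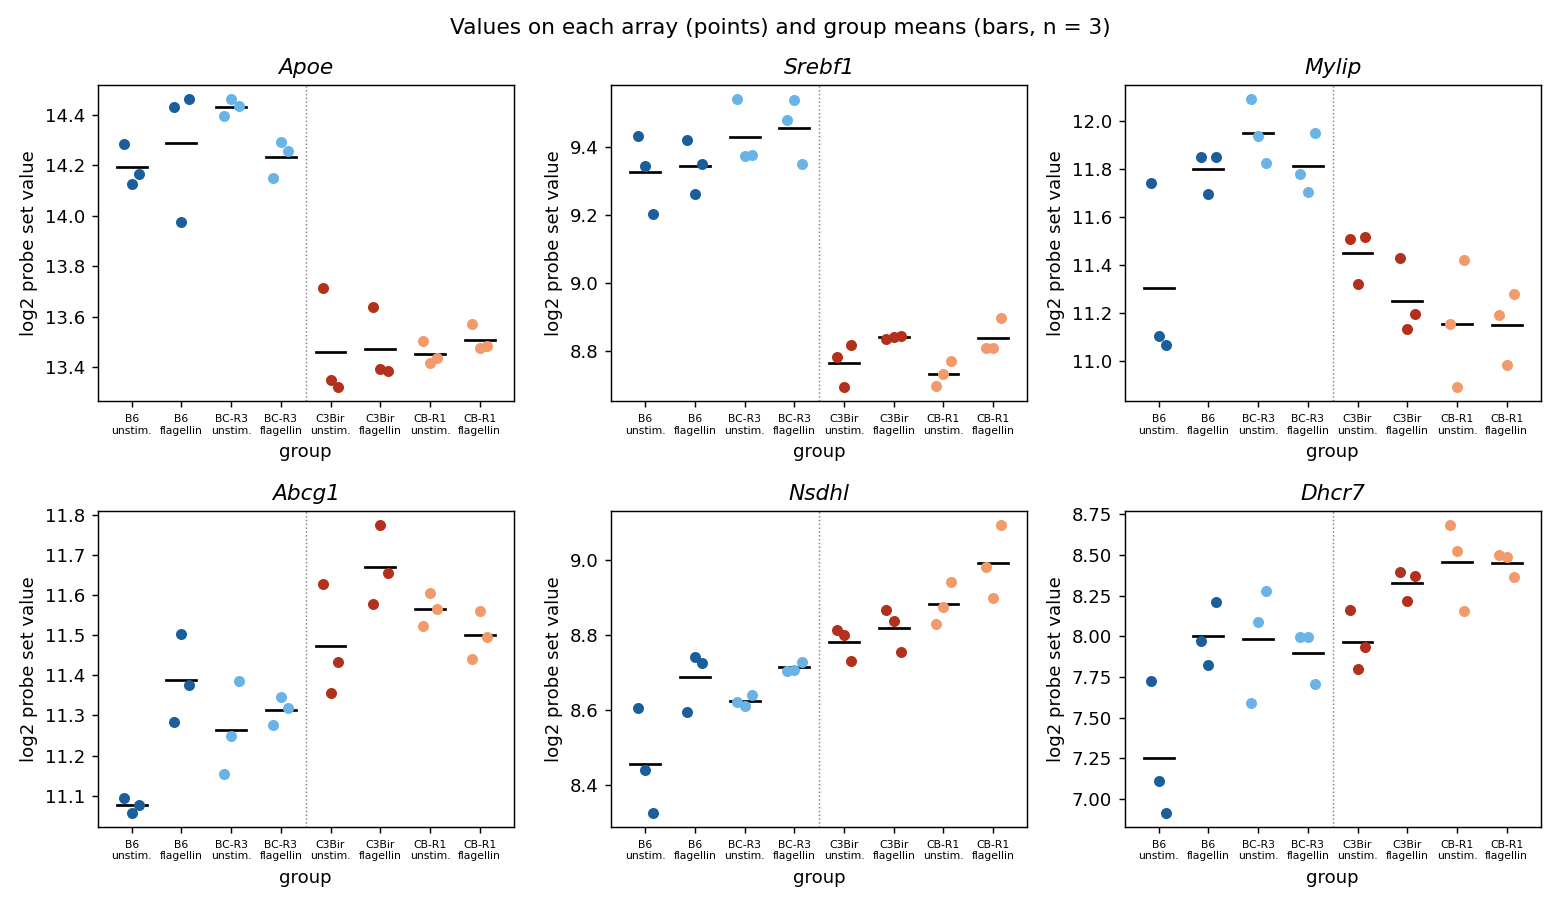
Log2 values of Apoe, Srebf1, Mylip, Abcg1, Nsdhl and Dhcr7 on every array (points) with the mean of each group (bars, n = 3). The dotted line parts the B6 background (left) from the C3Bir background (right), and for Apoe and Srebf1 no point on one side reaches the points on the other.

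C3Bir was then compared with B6 in each condition, which sets the susceptible against the resistant parent strain. In unstimulated cells 6 of 30 members (20%) were called, against 16.7% of all genes, so the members' share lay near that of all genes. Of these 4 were higher and 2 lower in C3Bir, where 10.4% and 6.3% of all genes were. With flagellin 9 of 30 (30%) were called, against 6.63% of all genes, 2 higher and 7 lower, where 3.7% and 2.93% of all genes were. Apoe and Srebf1 were lower and Abcg1 was higher in C3Bir in both conditions. The other calls differed between the conditions, and no member's flagellin change differed between the 2 strains at an adjusted p under 0.05, as is set out further on.

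In unstimulated cells Apoe was 13.71, 13.35 and 13.32 on C3Bir arrays 1 to 3 and 14.28, 14.13 and 14.17 on B6 arrays. It fell by 0.73 ± 0.11 (adjusted p = 1.55e-04). Srebf1 was 8.78, 8.69 and 8.82 against 9.44, 9.34 and 9.20, and fell by 0.56 ± 0.07 (adjusted p = 1.21e-05). Neither gene overlapped between the strains. The 4 members that were higher in C3Bir were Dhcr7 by 0.72 ± 0.19 (adjusted p = 0.0115), Insig2 by 0.41 ± 0.07 (6.95e-04), Abcg1 by 0.39 ± 0.08 (0.00121) and Nsdhl by 0.32 ± 0.07 (0.0024). Insig2, which retains SCAP in the endoplasmic reticulum, was 8.72, 8.91 and 8.91 on C3Bir arrays and 8.43, 8.53 and 8.34 on B6 arrays, with no overlap. With both strains' unstimulated arrays 2 and 3 left out, 1 array per strain was left and Srebf1 was the 1 member still called, at -0.66 (adjusted p = 0.00595), with the lone array assumed to vary like the other groups. Apoe was then at -0.57 (adjusted p = 0.144), Abcg1 at 0.53 (0.0502), Dhcr7 at 0.44 (0.591), Insig2 at 0.29 (0.322) and Nsdhl at 0.21 (0.468). Without B6 unstimulated array 1 alone, 12 members were called.

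With flagellin Apoe was 13.64, 13.40 and 13.39 on C3Bir arrays against 14.43, 13.98 and 14.46 on B6 arrays, and it fell by 0.82 ± 0.11 (adjusted p = 5.27e-05). Srebf1 was 8.83, 8.84 and 8.84 against 9.42, 9.26 and 9.35, and it fell by 0.51 ± 0.07 (adjusted p = 5.17e-05). Both were lower on every C3Bir array than on any B6 array. Among sterol enzymes 4 were lower: Cyp51 by -0.56 ± 0.13 (adjusted p = 0.0101), Fdps, which makes farnesyl diphosphate, by -0.42 ± 0.12 (0.0395), Sqle, the epoxidase of squalene, by -0.42 ± 0.11 (0.0289), and Sc5d by -0.33 ± 0.08 (0.0132). Mylip was lower by -0.55 ± 0.15 (adjusted p = 0.031). Both Sc5d and Lss had another probe set of the opposite sign here, at 0.17 and -0.04, and when all probe sets were averaged Sc5d was at -0.06 (adjusted p = 0.764) and Lss at 0.11 (0.295), leaving 6 of the 9 calls. By its main probe set Lss was higher by 0.33 ± 0.07 (adjusted p = 0.00361) and Abcg1 by 0.28 ± 0.08 (adjusted p = 0.0272). Sqle was 9.38, 9.29 and 9.30 on C3Bir arrays against 9.86, 9.58 and 9.78 on B6 arrays, with no overlap, while Fdps overlapped. The count fell to 4 without B6 flagellin array 1 or C3Bir flagellin array 2 and to 5 without array 3 of either flagellin group. It was 10 when arrays 2 and 3 of both unstimulated groups were left out.

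The congenic strains ask whether the Cdcs1 segment of chromosome 3 carries any of these differences. Apoe and Srebf1 followed the background and not the segment. Apoe was 14.39, 14.46 and 14.44 on BC-R3 unstimulated arrays and 14.15, 14.29 and 14.26 with flagellin, all within the B6 range of 13.98 to 14.46. On CB-R1 arrays it was 13.50, 13.42 and 13.44 unstimulated and 13.57, 13.47 and 13.48 with flagellin, all within the C3Bir range of 13.32 to 13.71. The allele effect, which sets the 12 arrays with the C3Bir form of Cdcs1 against the 12 with the B6 form, was 0.04 for Apoe (95% interval -0.08 to 0.15) and 0.06 for Srebf1 (-0.01 to 0.13).

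In the allele effect 0 of 30 members were called by limma, against 1.3% of all genes, 0.709% higher and 0.588% lower, and 10 members had an unadjusted p under 0.05. The lowest adjusted p values were 0.0657 for Insig2 (difference 0.14 ± 0.04), 0.0664 for Fdps (-0.22 ± 0.06), 0.076 for Abca1 (0.23 ± 0.06) and 0.0796 for Mylip (0.26 ± 0.08). Fdps, Pmvk and Elovl6 lie on chromosome 3, and whether they lie within the exchanged segments was not examined. Pmvk differed by -0.11 (95% interval -0.22 to -0.01, adjusted p = 0.285). The 95% interval ran from -0.35 to -0.10 for Fdps and from 0.11 to 0.42 for Mylip. With the replicate number as a fixed block 4 members were called, Fdps (adjusted p = 0.0348), Abca1 (0.0383), Mylip (0.0422) and Insig2 (0.0445), and with a random block by strain and number 0 were. Without unstimulated arrays 2 and 3 of B6 and of C3Bir 0 members and 15 genes in all were called, with Fdps at -0.29 (adjusted p = 0.307) and Mylip at 0.17 (0.638). Leaving out single arrays, the count became 5 without B6 unstimulated array 1, 3 without BC-R3 unstimulated array 1, 2 without C3Bir flagellin array 1, and 1 without B6 flagellin array 1 or C3Bir unstimulated array 1.

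BC-R3 against B6 without flagellin gave 8 called members of 30 (26.7%), close to the 30.3% of all genes. Of these 5 were higher and 3 lower, where 17.6% and 12.7% of all genes were, and the split was 4 and 5 with quantile normalization and 6 and 2 with median centring. Scd2, a desaturase of fatty acids related to Scd1, was 7.44, 8.02 and 8.22 on BC-R3 arrays and 7.60, 6.42 and 6.43 on B6 arrays. It was higher by 1.08 ± 0.23 (adjusted p = 0.00258), although array 1 of B6 overlapped BC-R3. Dhcr7 was 7.59, 8.09 and 8.28 against 7.73, 7.11 and 6.91, with the same overlap, and was higher by 0.73 ± 0.19 (0.00667). Mylip, Abca1 and Insig2 were higher as well, by 0.65 ± 0.15 (adjusted p = 0.00391), 0.38 ± 0.13 (0.0337) and 0.35 ± 0.07 (0.00226). Lower in BC-R3 were Nr1h3 by -0.71 ± 0.26 (adjusted p = 0.0492), Fdft1, the squalene synthase, by -0.40 ± 0.10 (0.00596), and Srebf2 by -0.35 ± 0.08 (0.0024). Fdft1 and Srebf2 did not overlap between the strains. Nr1h3 was 9.98, 8.70 and 8.74 on BC-R3 arrays, so array 1 lay among the B6 arrays, at 10.02, 9.72 and 9.80. Its call was kept in 1 of 6 fits with 1 array left out, where the difference ran from -1.13 to -0.48, and in 5 of 13 other alternatives. Arrays 2 and 3 of B6, the ones with cytokine means of 12.26 and 12.31, were among the arrays this comparison rests on. Without them and the C3Bir pair, with 1 unstimulated B6 array left, Scd2 was at 0.30 and Dhcr7 at 0.26. Without B6 unstimulated array 3 alone 5 were called.

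With flagellin 0 of 30 members differed between BC-R3 and B6 by limma, against 0.0165% of all genes, 0.011% higher and 0.0055% lower, and 2 members had an unadjusted p under 0.05. The differences lay between -0.28 for Sqle and 0.18 for Elovl6. CB-R1 against C3Bir gave 0 called members in either condition. In unstimulated cells 1.01% of all genes were called, 0.781% higher and 0.225% lower, and 9 members had an unadjusted p under 0.05, and with flagellin 0.055% of all genes were called, 0.044% higher and 0.011% lower, and 4 members had one. The nearest in unstimulated cells were Nr1h3 at -1.02 ± 0.26 (adjusted p = 0.058) and Scd2 at 0.90 ± 0.23 (0.0584). Scd2 was 8.05, 7.89 and 7.74 on CB-R1 arrays against 7.21, 7.04 and 6.75 on C3Bir arrays, with no overlap. Nr1h3 was 8.25, 8.27 and 8.66 against 8.78, 9.75 and 9.68, also with no overlap. The stromal and neutrophil marker means of these groups did not overlap either, and their part in these differences was not tested. Without the 4 arrays of high cytokine mean Nr1h3 was at -0.39 (adjusted p = 0.9996) and Scd2 at 0.68 (0.93), and 0 members and 3 genes in all were called. The count in unstimulated cells was 6 without C3Bir unstimulated array 1 and 2 without CB-R1 unstimulated array 3, and with flagellin it was 1 without C3Bir flagellin array 1.

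The flagellin comparison asked what 4 h of flagellin changed. In B6 the called members were higher on flagellin arrays, with 8 of 30 higher and 0 lower. The called share, 26.7%, lay near the 22.4% of all genes. Of all genes 12.9% were called higher and 9.49% lower. With quantile normalization 6 were higher and 1 lower. The median change was 0.13 over the members and -0.02 over all genes. Scd2 was 7.93, 8.04 and 7.84 on flagellin arrays and 7.60, 6.42 and 6.43 on unstimulated arrays. All flagellin arrays lay above all unstimulated ones, and array 1 of the unstimulated group lay much nearer to them than arrays 2 and 3. Scd2 rose by 1.12 ± 0.23, or 2.17-fold (adjusted p = 0.00464). Its other 2 probe sets were higher too, by 0.74 ± 0.18 and 0.50 ± 0.26.

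Of the sterol enzymes 4 rose in B6. Dhcr7 was 7.97, 7.82 and 8.21 with flagellin against 7.73, 7.11 and 6.91, and rose by 0.75 ± 0.19 (adjusted p = 0.00975). Sqle was 9.86, 9.58 and 9.78 against 9.50, 9.04 and 9.04, and rose by 0.55 ± 0.11 (0.00442). In neither did the groups overlap, and in both the unstimulated array 1 was the highest of its group. Msmo1, a methyl sterol oxidase, rose by 0.52 ± 0.12 (adjusted p = 0.00806) and Nsdhl by 0.23 ± 0.07 (0.0213), both with overlap. Of the LXR targets, Mylip rose by 0.50 ± 0.15 (0.0248), with overlap, and Abcg1 by 0.31 ± 0.08 (0.00855), from 11.09, 11.06 and 11.08 to 11.28, 11.50 and 11.38. Insig2 rose by 0.30 ± 0.07 (0.00907), from 8.43, 8.53 and 8.34 to 8.69, 8.76 and 8.76. For Abcg1 and Insig2 the unstimulated arrays were close together and below every flagellin array. The 1 other probe set of Abcg1 also rose at an unadjusted limma p under 0.05. The 2 others of Insig2 rose too, but neither reached that level. The call was kept in 11 of 14 other alternatives for Abcg1 and in 8 of 14 for Insig2. Apoe, Srebf1 and Nr1h3 were not called, with changes of 0.10 (95% interval -0.13 to 0.33), 0.02 (-0.13 to 0.16) and -0.13 (-0.68 to 0.42).

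These rises stood beside a lower cytokine mean with flagellin, at 9.18 to 12.31 on unstimulated B6 arrays and 8.24 to 8.96 on flagellin arrays. The part of that fall in the rises was not tested. Whether the cultures labelled unstimulated were free of any stimulus cannot be told from the labels. Over all 24 arrays, the 4 lowest Scd2 values, 6.42 to 7.04, were those of arrays 2 and 3 of the unstimulated B6 and C3Bir groups, with cytokine means of 10.23 to 12.31. The other 20 arrays had Scd2 at 7.21 to 8.22 and cytokine means of 7.17 to 9.45. Without those 4 arrays 1 unstimulated B6 array was left, so a lost call cannot tell a smaller change from fewer arrays. By size, Scd2 was then at 0.34 and Mylip at 0.06, below their changes above. Insig2, at 0.31, and Abcg1, at 0.29, stayed near theirs. The count was 5 without unstimulated array 2 and 3 without unstimulated array 3, while Scd2, Sqle and Abcg1 were called with any 1 array left out.

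In C3Bir, BC-R3 and CB-R1 0 members passed the test, and 0% of all genes did in each. Unadjusted p values under 0.05 were found for 2, 4 and 1 members. Scd2 changed by 0.33 in C3Bir (95% interval -0.15 to 0.82), -0.15 in BC-R3 (-0.64 to 0.34) and -0.08 in CB-R1 (-0.57 to 0.41). Dhcr7 changed by 0.36 (-0.03 to 0.75), -0.09 (-0.48 to 0.30) and -0.01 (-0.40 to 0.38). The intervals are wide, and a missed threshold does not show that flagellin left these genes as they were. In BC-R3 2 members were called when unstimulated array 1, the one with the high cytokine mean, was left out.

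**Figure D5:**
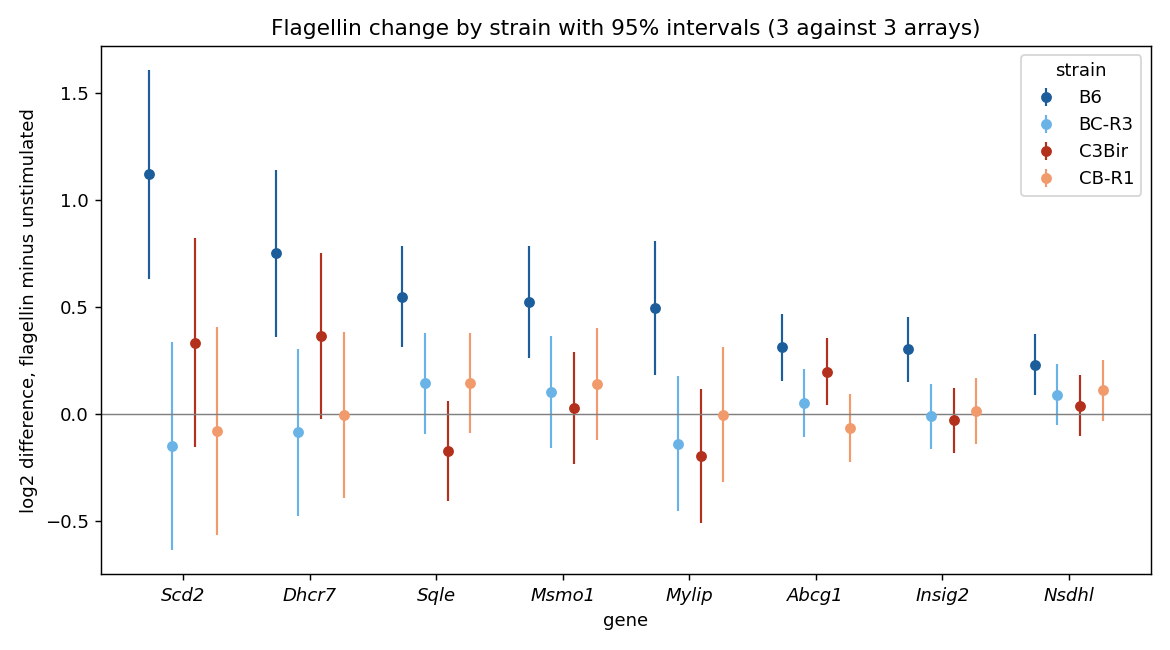
Log2 change with flagellin for the 8 members called in B6, in each of the 4 strains (points, 3 against 3 arrays) with 95% confidence intervals (lines). The B6 points lie above 0 for all 8 genes, and the BC-R3 and CB-R1 intervals include 0 for each of them.

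The strains' flagellin changes were compared by the test of their difference. Between BC-R3 and B6 it was called for 2 of 30 members (6.67%), both lower in BC-R3, against 10.5% of all genes, 4.16% higher and 6.38% lower. The change of Scd2 was smaller in BC-R3 by a difference of -1.27 ± 0.33 (adjusted p = 0.0282) and that of Dhcr7 by -0.84 ± 0.26 (0.0478). Next to them stood Insig2 at -0.31 ± 0.10 (0.0575) and Mylip at -0.63 ± 0.21 (0.0584). A difference between C3Bir and B6, and one between CB-R1 and C3Bir, was called for 0 members and 0% of all genes, with 7 and 5 members at an unadjusted p under 0.05. The lowest adjusted p between C3Bir and B6 was 0.123 for Sqle, whose change differed by -0.72 ± 0.16, and 6 members were called without B6 unstimulated array 1. The BC-R3 result rested on single arrays. It was 0 members without unstimulated array 2 or 3 of B6, unstimulated array 2 or 3 of BC-R3 or flagellin array 2 or 3 of BC-R3, and 1 without flagellin array 1 or 3 of B6 or flagellin array 1 of BC-R3. It rose to 6 without BC-R3 unstimulated array 1, and to 7 without B6 unstimulated array 1 or B6 flagellin array 2. With the replicate number as a fixed block and with a random block by strain and number it was 4, and with a fixed block by strain and number it was 2, of which 1 was among the 2 above.

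Across all 15 comparisons 7 members were never called: Mvd, Idi1 and Hsd17b7 of sterol synthesis, Scap and Insig1 of SREBP control, and Acaca and Elovl6 of fatty acid synthesis. Insig1 is the INSIG form whose own gene is a strong SREBP target, and its values ran from 8.63 to 9.51 over the 24 arrays. In the 6 comparisons of a pair of strains, 17 members (56.67%) were called at least once, as were 38% of all genes. Nr1h3, Scd2 and Dhcr7 had the widest ranges over the 24 arrays, at 1.78, 1.80 and 1.77, and Hsd17b7 and Mvk the narrowest, at 0.36 and 0.37.

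Other genes of the same pathways were read from a list of 50 genes, of which 43 were measured. In the background comparison 16 were higher and 6 lower in the C3Bir background, where 16.6% and 10.6% of all genes were, and 15 were higher and 6 lower without unstimulated arrays 2 and 3 of B6 and of C3Bir. The largest of these were Acss2, which activates acetate for lipid synthesis, at 0.91 ± 0.07, Acsl3, which activates long-chain fatty acids, at 0.85 ± 0.07, Fads1, a desaturase of polyunsaturated fatty acids, at 0.79 ± 0.15, and Ggps1, which makes geranylgeranyl diphosphate, at -0.54 ± 0.06. With flagellin in B6 21 rose and 2 fell, where 12.9% and 9.49% of all genes did, led by Ch25h, the cholesterol 25-hydroxylase, which fell by 2.35 ± 0.53, and by Nceh1, a cholesteryl ester hydrolase, at 1.25 ± 0.30, Fads1 at 1.24 ± 0.30 and Pparg, a lipid-sensing nuclear receptor, at 1.10 ± 0.23. BC-R3 against B6 without flagellin gave 25 higher and 3 lower, where 17.6% and 12.7% of all genes were, with Ch25h at -2.15 ± 0.53. The flagellin change was lower in BC-R3 than in B6 for 15 of the 43 and higher for 1, against 6.38% and 4.16% of all genes. Without those 4 arrays, with 1 unstimulated B6 array left, Ch25h was at -0.99 with flagellin in B6 and at -0.79 for BC-R3 against B6. The allele effect was called for 1, Mbtps2, which cleaves SREBP precursors, at 0.20 ± 0.04 (adjusted p = 0.0325). CB-R1 against C3Bir gave 1 in unstimulated cells, Lbr, a sterol reductase of the nuclear envelope, at 0.73 ± 0.17 (adjusted p = 0.0445), and 0 with flagellin. Without the 4 arrays neither Mbtps2 (0.18, adjusted p = 0.468) nor Lbr (0.41, 0.9996) was called.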

How the data were processed

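The data were 1 table of log2 values per probe set that the authors deposited, with 45037 probe sets on 24 arrays. For the deposited log2 values, the method and normalization used by the authors are not given in the sources used here. Values were used as deposited, without a filter. Of the probe sets, 4 had no values, 34944 were listed with 1 symbol, 932 with several and 9158 with none. For each of 18193 genes, the one-symbol probe set with the highest mean was taken. No 2 arrays held identical values.

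Group means of the 8 groups were fitted to all 24 arrays with limma 3.58.1 in R 4.3.3 (lmFit, eBayes, 16 residual degrees of freedom, two-sided). Benjamini-Hochberg adjustment ran over all genes within each of 15 comparisons, with calls at 0.05, and the script was tested on simulated data. SE, 95% intervals and adjusted p are from this fit. The number of arrays, 3 per group, limits the precision. Members, gene lists and tests were chosen with earlier results of these data known. The text names with full values the called members of a comparison, at most the 10 largest, and of the other pathway genes at most 4 called per comparison. Members near the threshold and a few others were added after their values were seen. No member had a mean under the lower quartile in every group.

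Same-numbered unstimulated and flagellin arrays of C3Bir and CB-R1 deviated together (correlations of 0.30 to 0.50). Whether they shared a mouse or a batch cannot be told. In B6 and BC-R3 the correlations ran from -0.54 to 0.31. Alternatives were median centring, quantile normalization, filtering of low values, other uses of probe sets, eBayes options, group weights, the compared arrays alone, 3 forms of a replicate block, a 2-fold threshold and leaving out arrays. One block, by strain and number with fixed effects, was chosen after seeing the data, as was the count of other pathway genes without arrays 2 and 3 of the unstimulated B6 and C3Bir groups. Promoter windows came from RefSeq (GRCm38.p6), and figures were drawn with matplotlib 3.10.9.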

Additional observations from a re-analysis of the deposited data

Results flagged for a closer look

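The flagellin change of 2 members differed between BC-R3 and B6 by the test of the difference itself. The log2 difference of the changes was -1.27 ± 0.33 for Scd2 (limma, adjusted p = 0.0282) and -0.84 ± 0.26 for Dhcr7 (adjusted p = 0.0478). Scd2 was higher on all 3 flagellin arrays than on any unstimulated array in B6, and in BC-R3 the arrays of the conditions overlapped. Both results depended on single arrays of either condition. With 1 array left out, the call was kept in 6 of 12 fits for Scd2 and in 3 of 12 for Dhcr7. The inflammatory cytokine means of the unstimulated arrays ran from 9.18 to 12.31 in B6 and from 7.56 to 9.45 in BC-R3. With arrays 2 and 3 of the unstimulated B6 and C3Bir groups left out, 1 unstimulated B6 array remained and the differences were -0.49 and -0.36. With array 1 of the unstimulated B6, C3Bir and BC-R3 groups left out they were -1.89 (adjusted p = 3.31e-07) and -1.28 (5.72e-05).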

How the results depend on the processing

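Apoe and Srebf1 kept their background difference and its call in all 24 fits with 1 array left out and under 11 of 12 other alternatives, the exception being the 2-fold threshold. Over the called differences of single members, 995 alternative values kept direction and call, 229 kept the direction but lost the call, and 1 reversed: Sc5d in the background comparison, at 0.0469 with the mean of its probe sets.

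Counts of called members that moved were as follows, and the cause was not tested. With quantile normalization the allele effect had 1 and the BC-R3 minus B6 difference of the flagellin change 1. Median centring and the mean of probe sets gave 1 each for the allele effect, and all probe sets and the eBayes options 1 each for that difference. Group weights gave 5 for flagellin in B6, 5 for C3Bir minus B6 with flagellin, 2 for CB-R1 minus C3Bir unstimulated and 1 for the difference. The compared arrays alone, with fewer samples, gave 0 for flagellin in B6, for BC-R3 minus B6 unstimulated and for the difference, and 5 for C3Bir minus B6 with flagellin. The 2-fold threshold left 1 for flagellin in B6, for BC-R3 minus B6 unstimulated and for the difference, and 0 for C3Bir minus B6 in either condition and for the background. Leaving out arrays 2 and 3 of the unstimulated B6 and C3Bir groups, C3Bir minus B6 unstimulated had 1 and flagellin in B6, BC-R3 minus B6 unstimulated and the difference 0. Leaving out array 1 of the unstimulated B6, C3Bir and BC-R3 groups there were 4 for flagellin in C3Bir, 2 for flagellin in BC-R3, 13 for C3Bir minus B6, 14 for BC-R3 minus B6 and 10 for CB-R1 minus C3Bir, all unstimulated, 5 for the allele effect, and 8, 11 and 1 for the differences of C3Bir minus B6, BC-R3 minus B6 and CB-R1 minus C3Bir.

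With the replicate number as a fixed block, CB-R1 minus C3Bir unstimulated had 1, the allele effect 4 and the BC-R3 minus B6 difference 4. A random replicate block by strain and number gave 4 for that difference, and its fixed form gave 2, with 10 for flagellin in B6. In C3Bir and CB-R1, where same-numbered arrays deviated together, every replicate block left the flagellin count at 0.

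Leaving out single arrays gave 3 to 11 for flagellin in B6, 0 to 2 in BC-R3 and 0 in C3Bir and CB-R1. It gave 5 to 12 and 4 to 9 for C3Bir minus B6 unstimulated and with flagellin, 5 to 12 and 0 for BC-R3 minus B6, 0 to 6 and 0 to 1 for CB-R1 minus C3Bir, 13 to 17 for the background and 0 to 5 for the allele effect. The differences of the flagellin change had 0 to 6 for C3Bir minus B6, 0 to 7 for BC-R3 minus B6 and 0 for CB-R1 minus C3Bir.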
